A study of Mus musculus with 2 samples.

Results

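The RGS genes described here are 7 named regulators of G protein signalling, Rgs1, Rgs2, Rgs3, Rgs10, Rgs14, Rgs18 and Rgs19, chosen by symbol out of the 55450 gene identifiers of the files and set beside the other 14 numbered Rgs genes. They were followed in microglia that had been sorted out of whole brain, all from male adult mice of the strain C57BL/6J. In the anesthesia group, 3 mice had received 100 mg/kg sodium pentobarbital, a barbiturate, and in the awake group 3 mice had received saline. Brains were minced, digested with collagenase and DNase and cleared of myelin on Percoll, cells positive for CD11b with low CD45 were sorted, and RNA was captured in droplets with a chemistry that reads the 3' end of each transcript and counts each molecule once by its unique molecular identifier (UMI). Each group had 1 library, so no value below has a replicate check, no p-value is given, and library, handling and treatment cannot be told apart. Whether the 3 mice were pooled before capture, how long the drug acted and at which hour brains were taken was not stated by the labels. All intervals are 95% intervals that cover counting error only.

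G protein coupled receptors switch on heterotrimeric G proteins by loading the alpha subunit with GTP. RGS proteins end that signal by speeding up the hydrolysis of the GTP, and the family members differ in which alpha subunits they act on. Microglia sense nucleotides, chemokines and complement fragments largely through receptors coupled to inhibitory G proteins, so RGS proteins stand downstream of many microglial receptors.

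The anesthesia library held 9412 and the awake library 8600 barcodes, and 14 barcodes occurred in both. After filtering, 8264 anesthesia and 7513 awake cells were in microglia-like clusters, with 56785450 and 49194213 UMIs, a median of 5504 and 6016 UMIs per cell and a median mitochondrial share of 2.14% and 1.33%. All 10 microglial markers were present in them, with a summed level of 25843 CPM (UMIs per 1000000 UMIs of the class and library) in the anesthesia and 29016 CPM in the awake library. Most microglia-like anesthesia cells fell in clusters 0 and 2, and most awake ones in clusters 1 and 3. A gene with at least 200 UMIs over both libraries counts as measured, which 11419 genes did. Over the 16 marker lists of other cells, the summed level in microglia-like cells ranged from 5.55 to 212 CPM in the anesthesia and from 3.11 to 239 CPM in the awake library. The highest sum of each library was that of the B cell list. Of other cells known to carry RGS genes, neutrophils had a sum of 166 CPM in the anesthesia and 234 CPM in the awake library. Platelets had 49.6 and 64.3 CPM, and endothelium 49.4 and 61.0 CPM.

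The members Rgs2, Rgs1 and Rgs18 are neighbours on chromosome 1 (GRCm38, GENCODE M21), all on the minus strand. Rgs2 lies at chr1:143999338-144004161, Rgs1 at chr1:144242296-144249242 and Rgs18 at chr1:144752683-144775435, with Rgs13 and Rgs21 between them, in a run of 5 protein-coding genes over 776098 bases. Rgs10 is at chr7:128373621-128418758, Rgs19 at chr2:181688419-181693977, Rgs3 at chr4:62559847-62704001 and Rgs14 at chr13:55369732-55384687. No exon of a member overlaps an exon of another annotated gene on either strand. Promoter sequences were given by RefSeq (GRCm38.p6) for 4 of the 7 members, Rgs2, Rgs3, Rgs10 and Rgs19. The 250 bases before a RefSeq start are shown for the most abundant member, Rgs10, and for Rgs2, which differed little between the libraries. They are also shown for Rgs19, which differed in the same direction as Rgs10. RefSeq gave 3 starts for Rgs19 and 2 for Rgs3, of which 1 was used for each gene. The start used for Rgs10 lies inside the annotated gene, and so do the bases shown. Capitals mark matches to the motifs searched.
Rgs10, chr7:128418173-128418422, minus strand: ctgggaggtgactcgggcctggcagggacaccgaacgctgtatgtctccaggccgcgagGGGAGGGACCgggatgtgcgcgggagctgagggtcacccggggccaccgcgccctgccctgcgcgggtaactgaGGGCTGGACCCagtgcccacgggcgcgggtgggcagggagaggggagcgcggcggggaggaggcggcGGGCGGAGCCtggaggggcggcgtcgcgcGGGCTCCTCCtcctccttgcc
Rgs19, chr2:181693978-181694227, minus strand: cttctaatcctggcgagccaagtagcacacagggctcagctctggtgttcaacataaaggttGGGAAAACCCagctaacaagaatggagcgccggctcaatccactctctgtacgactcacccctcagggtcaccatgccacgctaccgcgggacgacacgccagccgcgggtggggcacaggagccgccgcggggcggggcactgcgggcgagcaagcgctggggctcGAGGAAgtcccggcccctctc
Rgs2, chr1:144004150-144004399, minus strand: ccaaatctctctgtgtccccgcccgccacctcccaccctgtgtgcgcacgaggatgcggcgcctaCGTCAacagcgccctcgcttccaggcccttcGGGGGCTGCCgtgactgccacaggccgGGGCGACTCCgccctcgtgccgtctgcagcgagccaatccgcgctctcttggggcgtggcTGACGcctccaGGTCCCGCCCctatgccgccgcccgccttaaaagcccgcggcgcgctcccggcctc

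The Rgs10 promoter held 27 CG pairs and the Rgs2 promoter 30, against a median of 6 over 32851 RefSeq promoters of the same length, and Rgs19 held 20. GC content was 76.4% for Rgs10, 72.4% for Rgs2 and 64.8% for Rgs19, against a median of 52.4%. The motif shares given next are over all promoters and are not matched for GC content. Letters of the NF-kB type, GGG and CC with any 5 bases between them, matched at 5 places in Rgs10, of which 2 overlap, at 3 places in Rgs2 and at 1 place in Rgs19, and 45.8% of all promoters hold such a match. The core of the cAMP response element, TGACG, matched at 2 places in Rgs2, and 17.8% of all promoters hold it. GAGGAA, the core bound by PU.1 and other ETS factors, matched at 1 place in Rgs19, and 23.3% of promoters hold it. Rgs3 held 1 TATAAA match, present in 12.4% of promoters. Of the 8 motifs searched on both strands, 4 had no match in the 4 promoters, namely TGACGTCA, TGANTCA (AP-1), ACANNNTGT (glucocorticoid response element) and CACGTG (E-box). No match of one motif overlapped that of another. A match is a run of letters and not a measured binding site.

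Rgs10, Rgs2 and Rgs1 made up nearly all of the RGS RNA of microglia-like cells, and their balance differed between the libraries. Rgs10 was the most abundant in both, Rgs2 the second and Rgs1 the third, but Rgs1 was higher and Rgs10 lower in the anesthesia library while Rgs2 was nearly level. Levels are in CPM, not divided by length, since each molecule is tagged once at its end, and the capture of different 3' ends may differ. The 7 members held 99.5% of the UMIs of all 21 numbered Rgs genes in the anesthesia and 99.7% in the awake library. Together they summed to 2241 CPM in the anesthesia and 2589 CPM in the awake library, a log2 ratio of -0.21 (-0.22 to -0.20), anesthesia over awake here and below. Rgs10 made up 47.2% of these UMIs in the anesthesia and 59.5% in the awake library, Rgs2 31.5% and 26.6%, and Rgs1 17.1% and 8.51%. There were thus 2.75 Rgs10 UMIs per Rgs1 UMI in the anesthesia library and 6.99 in the awake library.

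**Figure D1:**
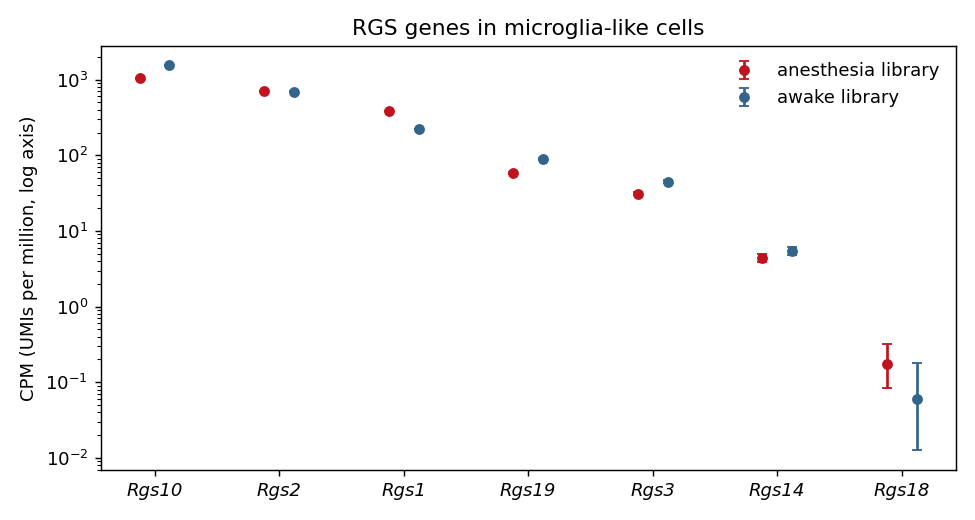
Level of each RGS gene in microglia-like cells (CPM, log axis), 1 point per library with its exact Poisson 95% interval, ordered by the awake level. Rgs1 lies higher in the anesthesia library (384 against 220 CPM), Rgs10, Rgs19 and Rgs3 lie lower, and Rgs18 is under 1 CPM in both.

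Of the 7 members, 6 were measured and Rgs18 was not. Of these, 1 was at least 1.5-fold higher in the anesthesia library, where 13.2% of all measured genes were, and 1 was at least 1.5-fold lower, where 12.1% were, so neither count stands above the background. Over the 6 measured members the log2 ratio had a median of -0.42, beside -0.02 over all measured genes, of which the central 90% lay between -0.84 and 0.94. Abundant genes spread less. Among 762 genes of at least 200 CPM the central 90% lay between -0.60 and 0.76. Of these, 8.53% were at least 1.5-fold higher and 5.38% lower.

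Rgs1 encodes a regulator of receptors coupled to inhibitory and Gq-type proteins that is known to restrain chemokine receptor signalling in lymphocytes. It had 384 CPM (379 to 389) in the anesthesia and 220.4 CPM (216 to 225) in the awake library, a log2 ratio of 0.80 (0.77 to 0.84), or 1.74-fold. Of all measured genes, 7.39% had a larger ratio. With the trend of GC content and transcript length over all genes removed, the ratio of Rgs1 was 0.44, under the 1.5-fold limit. As a mean of within-cluster ratios it was 0.58, only just under that limit. This mean used clusters 1, 3 and 9 alone, with 85, 72 and 81 anesthesia cells. Clusters 0 and 2, where most microglia-like anesthesia cells fell, were not in it. The longest transcript of Rgs1 is AT-rich, with 5843 bases and 35.9% GC.

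Rgs2, an early-response gene whose protein prefers Gq-type alpha subunits, had 705 CPM (698 to 712) in the anesthesia and 689.8 CPM (682 to 697) in the awake library. Its log2 ratio was 0.03 (0.01 to 0.05), in the middle of the distribution over all genes, and its sign turned under 3 of 11 alternatives. Of the neighbours on chromosome 1, Rgs2 thus differed far less than Rgs1 did.

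Rgs10 encodes a small RGS protein that acts on inhibitory alpha subunits and is abundant in microglia, where its loss in mice has been tied to stronger inflammatory responses. It had 1058 CPM (1049 to 1066) in the anesthesia and 1539.9 CPM (1529 to 1551) in the awake library, and ranked 123 and 69 among the measured genes. The log2 ratio was -0.54 (-0.56 to -0.53), 1.46-fold lower and just under the 1.5-fold limit, and 13.7% of measured genes had a lower one. Rgs19, which encodes a protein that binds inhibitory alpha subunits, had 58.9 CPM (56.9 to 60.9) in the anesthesia and 88.5 CPM (85.9 to 91.2) in the awake library. Its log2 ratio of -0.59 (-0.65 to -0.52) lay just past the limit, which its interval spans, and it was under the limit in 7 of 11 alternatives.

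Rgs3, whose protein acts on inhibitory and Gq-type subunits and comes in several isoforms with different 3' ends that these counts do not tell apart, had 31.1 CPM (29.6 to 32.5) in the anesthesia and 44.9 CPM (43.1 to 46.8) in the awake library, a log2 ratio of -0.53 (-0.62 to -0.44). Rgs14, a scaffold that binds inhibitory alpha subunits and is best known from hippocampal neurons, was close to the limit of measurement with 250 UMIs (4.40 CPM) in the anesthesia and 268 UMIs (5.45 CPM) in the awake library, a log2 ratio of -0.31 (-0.56 to -0.05). Rgs18, known from platelets and other blood cells, had 10 UMIs in 8264 anesthesia cells and 3 UMIs in 7513 awake cells, and its log2 ratio of 1.53 had an interval of -0.43 to 4.03 that spans 0. Of the 14 other Rgs genes, 2 were measured, with log2 ratios of 0.24 (-0.16 to 0.65) for Rgs5, a pericyte gene, and 0.10 (-0.15 to 0.35) for Rgs12, which encodes a large multidomain RGS protein.

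Rgs1 was seen in a larger share of anesthesia than awake cells. With each cell thinned to 2000 UMIs, Rgs1 had a UMI in 40.5% (39.4 to 41.6) of 8143 anesthesia and 24.8% (23.8 to 25.8) of 7455 awake cells, and cells with a UMI averaged 1.94 and 1.74 of them. At under 1 UMI per cell on average, more cells with the gene and more RNA in each cell cannot be told apart. Cells with 3 or more Rgs1 UMIs were 9.38% of anesthesia and 4.14% of awake cells. Unthinned, the shares with a UMI were 63.2% and 45.6%. The thinning left out 121 anesthesia and 58 awake cells. In endothelial-like barcodes, a class that should lack the gene, the thinned shares were 17.1% (10.9 to 24.9) of 123 anesthesia and 8.04% (3.74 to 14.7) of 112 awake barcodes. Median depths before thinning were 4822 and 5581 UMIs there, and 5504 and 6016 UMIs in microglia-like cells.

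Rgs10 was seen in most microglia-like cells of both libraries, with fewer UMIs per cell in the anesthesia library. After thinning it had a UMI in 86.2% (85.4 to 86.9) of anesthesia and 94.0% (93.5 to 94.6) of awake cells, with a mean of 2.11 and 3.04 UMIs per cell, and 3 or more in 35.0% and 57.2%. Unthinned, it was seen in 98.2% and 99.6%, with a median of 6 UMIs per anesthesia and 9 per awake cell. Endothelial-like barcodes with Rgs10 were 53.7% and 29.5%. Rgs2 was seen in 68.4% (67.4 to 69.4) of anesthesia and 67.4% (66.4 to 68.5) of awake thinned cells, and in 29.3% and 19.6% of endothelial-like barcodes. Rgs19 and Rgs3 were seen in a smaller share of anesthesia than awake cells with intervals apart, and the intervals of Rgs14 overlapped. Rgs19 was seen in 11.3% (10.7 to 12.0) of anesthesia and 16.1% (15.2 to 16.9) of awake cells, Rgs3 in 5.55% (5.06 to 6.07) and 8.03% (7.43 to 8.68), and Rgs14 in 0.896% (0.703 to 1.13) and 1.11% (0.888 to 1.38). Rgs18 was seen in 4 of 8143 anesthesia cells and in 0 of 7455 awake cells, which at 3 counts allows a share with a UMI at this depth of up to 0.0402%, and unthinned in 9 of 8264 and 3 of 7513 cells. The shares in endothelial-like barcodes were 2.44% and 7.14% for Rgs19, 0 of 123 and 0 of 112 for Rgs14, and 6.50% (2.85 to 12.4) and 15.2% (9.10 to 23.2) for Rgs3, which lies above its microglia-like share beyond counting error in the awake library but not in the anesthesia library.

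**Figure D2:**
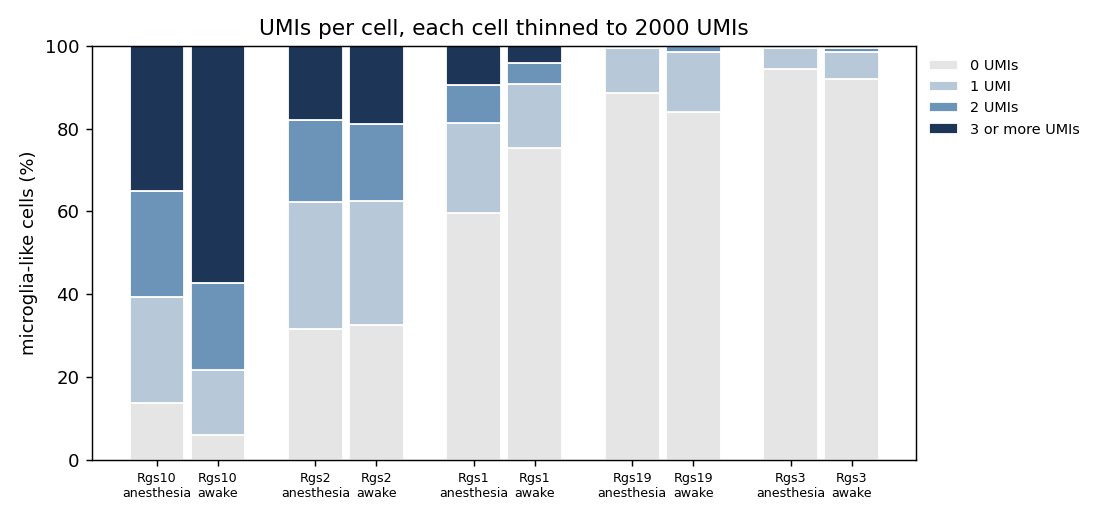
Share of microglia-like cells (%) with 0, 1, 2 or 3 or more UMIs of each gene after thinning every cell to 2000 UMIs, anesthesia left of awake for each gene. The dark band of Rgs10 is 35.0% in the anesthesia and 57.2% in the awake library, and the empty band of Rgs1 is 59.5% and 75.2%.

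The variance of the thinned counts over cells, divided by their mean, is near 1 where cells differ by sampling alone. It was 2.20 in the anesthesia and 2.34 in the awake library for Rgs1, 1.45 and 1.65 for Rgs2, 1.13 and 1.14 for Rgs10, and 0.991 and 1.03 for Rgs19. Rgs3 was at 1.11 in the anesthesia and 1.45 in the awake library. The ratio also depends on the level of a gene, so it gives no order between genes.

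Rgs1 and Rgs2 tended to be seen in the same cells. In the anesthesia library, Rgs1 had a UMI in 34.5% (32.7 to 36.4) of thinned cells with 0 Rgs2 UMIs and in 49.5% (46.9 to 52.1) of those with 3 or more. In the awake library these shares were 19.5% (18.0 to 21.2) and 33.8% (31.3 to 36.3). Rgs10 showed no such gradient, with 86.3% and 86.7% in anesthesia and 93.6% and 93.9% in awake cells. All of Rgs1, Rgs2 and Rgs10 were seen in 25.5% of anesthesia and 17.3% of awake thinned cells, and none of them in 2.73% and 1.56%.

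Cells with more RNA of a list of 17 genes of the tissue dissociation response, such as Fos, Ccl3 and Ccl4, had more Rgs1 and Rgs2 and less Rgs10. Cells of each library were split into tertiles by the summed thinned UMIs of that list, which holds no RGS gene. From the lowest to the middle and highest tertile, Rgs1 was at 318, 378 and 481 CPM in the anesthesia and at 188, 197 and 264 CPM in the awake library. The lowest tertile of the anesthesia library thus lay above the highest tertile of the awake library. Rgs2 was at 625, 664 and 784 CPM in the anesthesia and at 565, 685 and 872 CPM in the awake library, and Rgs10 at 1109, 1057 and 993 CPM and at 1623, 1532 and 1395 CPM. The tertiles are ranges of a score and not cell types, and 16.4% of anesthesia and 15.5% of awake cells lay within 2 UMIs of a border. Between the libraries the list itself went both ways, with Hspa1b (1.44), Ccl4 (1.24) and Ccl3 (1.10) at least 1.5-fold higher, Btg2 (-0.86), Dusp1 (-0.72) and Ier2 (-0.67) lower, and a median of -0.29 over its 17 genes. Its part in the RGS differences was not tested.

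**Figure D3:**
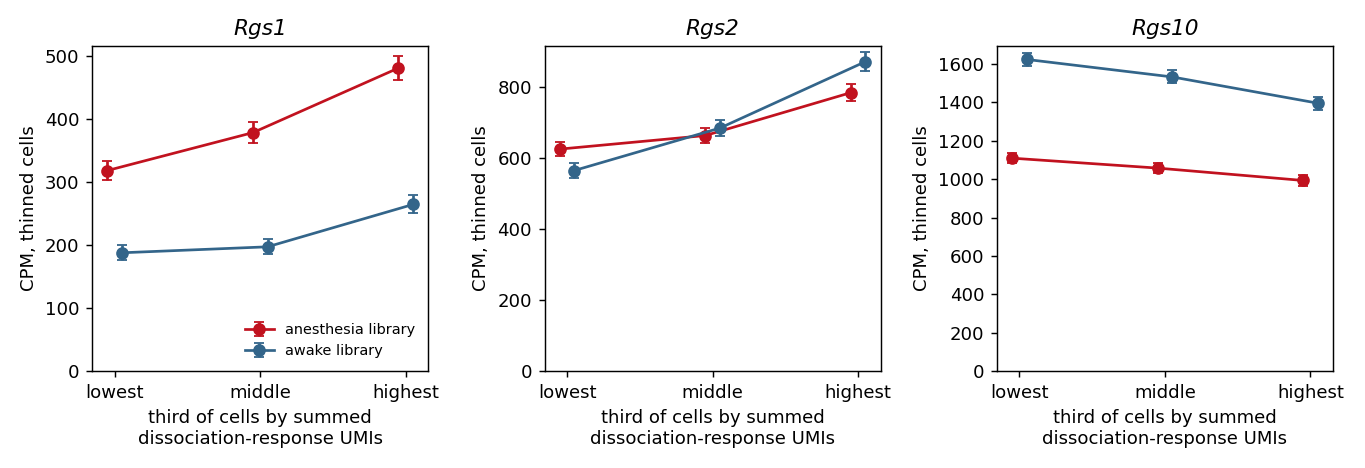
Level of Rgs1, Rgs2 and Rgs10 (CPM of thinned cells, exact Poisson 95% intervals) in tertiles of the microglia-like cells of each library, split by the summed UMIs of the dissociation response list. Rgs1 and Rgs2 climb with the score in both libraries and Rgs10 declines, and the libraries stay apart for Rgs1 and Rgs10 in every tertile.

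The libraries kept the same order at every depth for Rgs1, Rgs10 and Rgs19. Over 4 ranges of UMIs per cell, split at 3000, 6000 and 10000, Rgs1 ranged from 359 to 488 CPM in the anesthesia and from 207 to 233 CPM in the awake library. Rgs10 ranged from 889 to 1107 CPM and from 1263 to 1608 CPM, and Rgs19 from 44.3 to 62.3 CPM and from 80.8 to 98.8 CPM.

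Among microglia-like clusters, which were made without any Rgs gene, the cluster led by Clec7a, Lgals3 and Spp1 had the lowest Rgs10 of each library together with high Rgs1. This cluster, number 7, held 42 anesthesia and 175 awake cells. Its Rgs1 was at 502 CPM (424 to 591) in the anesthesia and 352 CPM (323 to 384) in the awake library, and the awake value was near the 355 CPM (284 to 439) of the 44 awake cells in cluster 2. Its Rgs10 was at 609.9 CPM (523 to 707) in the anesthesia and 1033 CPM (982 to 1087) in the awake library. This awake interval overlapped that of the 46 awake cells in cluster 0, at 1178 CPM (1059 to 1307). The large clusters 0 and 2 of the anesthesia library had 372 and 411 CPM of Rgs1 and 1046 and 1078 CPM of Rgs10, and the large clusters 1 and 3 of the awake library had 217 and 212 CPM of Rgs1 and 1522 and 1614 CPM of Rgs10. In the interferon-led cluster 9, with 81 anesthesia and 117 awake cells, Rgs1 did not differ beyond counting error, at 268 CPM (226 to 316) and 264 CPM (230.0 to 302).

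Rgs3 divided the large clusters within each library. In the anesthesia library it was at 44.0 CPM (41.0 to 47.2) in cluster 2 and 24.9 CPM (23.4 to 26.6) in cluster 0, and in the awake library at 63.5 CPM (60.4 to 66.6) in cluster 1 and 21.3 CPM (19.4 to 23.5) in cluster 3. Within clusters, between the libraries, Rgs10 was lower in the anesthesia library in each of the 6 microglia-like clusters, with log2 ratios from -0.76 in cluster 7 to -0.17 in cluster 0 and every interval below 0. Rgs1 was higher in all 6, from 0.02 in cluster 9 to 1.05 in cluster 1, and the interval lay above 0 in clusters 0, 1, 3 and 7. For Rgs3 the ratio ran from -0.75 in cluster 9 to 0.02 in cluster 1, and the interval spanned 0 in every cluster. For Rgs19 it ran from -1.33 in cluster 9 to 0.13 (-0.59 to 0.97) in cluster 0. The Rgs19 interval lay below 0 in clusters 1, 2, 3 and 9. Each of these 6 clusters had fewer than 100 cells of 1 library.

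**Figure D4:**
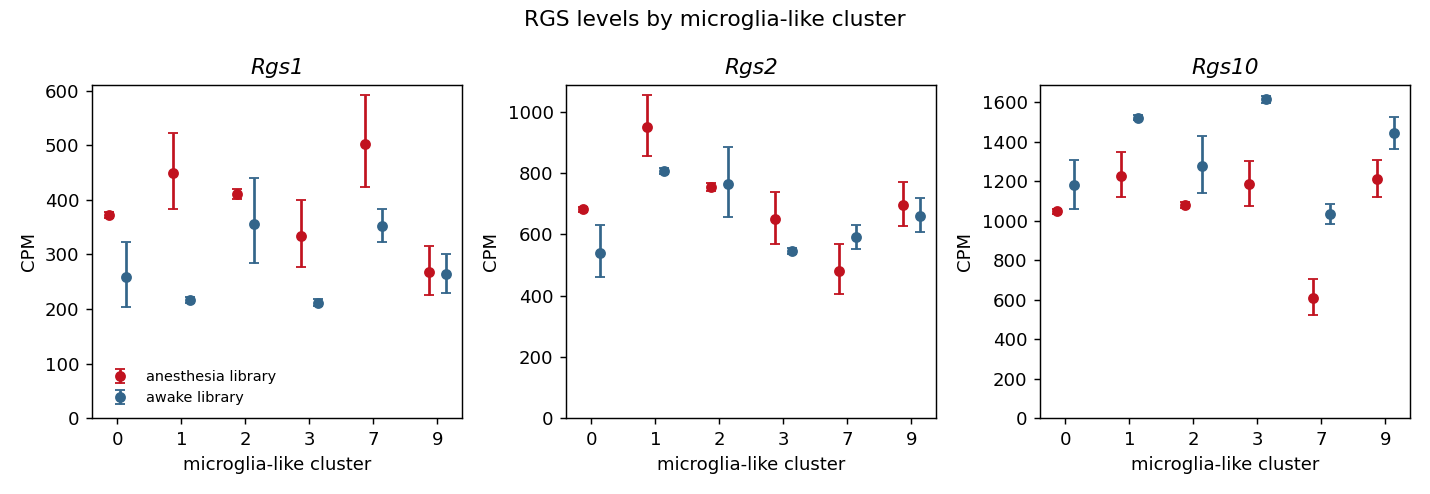
Level of Rgs1, Rgs2 and Rgs10 (CPM, exact Poisson 95% intervals) in each microglia-like cluster, anesthesia left of awake. Rgs10 lies lower in the anesthesia library in all 6 clusters, and cluster 7 has the lowest Rgs10 of each library (609.9 and 1033 CPM). In the awake library its interval overlaps that of cluster 0.

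Over 18 cluster by library sums of at least 50 cells, drawn from all classes, which share their library and its depth, the 3 genes of 5800 whose log2 level followed Rgs10 best were Aif1 (r = 0.97), which encodes the microglial protein Iba1, Arhgdib (0.95) and Ang (0.95), whose exons overlap those of Rnase4. Aif1 had 495 CPM in the anesthesia and 707 CPM in the awake library, a log2 ratio of -0.52. For Rgs2 they were Sat1 (0.94), Celf2 (0.93) and Mtdh (0.92), and for Rgs1 Naa15 (0.91), Hnrnpdl (0.89) and Eif3j1 (0.89). Between members, r was 0.79 for Rgs10 with Rgs19, 0.78 for Rgs1 with Rgs2 and 0.76 for Rgs2 with Rgs10. It was 0.58 for Rgs2 with Rgs19, 0.37 for Rgs1 with Rgs10 and 0.19 for Rgs1 with Rgs19. For Rgs3 it was 0.03 with Rgs1, -0.04 with Rgs2 and -0.23 with Rgs10. These values describe the sums and carry no test.

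In endothelial-like barcodes, which also held microglial RNA, Rgs10 stood close to the level of the microglial markers and Rgs3 above it. In 136 anesthesia and 121 awake endothelial-like barcodes, the 10 microglial markers stood at a median of 54.0% and 23.7% of their level in microglia-like cells, over a range of 49.9% to 65.7% and of 19.5% to 25.1%. Rgs10 was at 57.2% and 25.5%, within the marker range in the anesthesia library and just above its upper end in the awake library. Rgs2 was at 64.6% and 34.7% and Rgs1 at 51.0% and 33.7%, within the marker range in the anesthesia library and above it in the awake library. Rgs19, with 43 and 25 UMIs, was at 67.5% and 38.2%, above the marker range in both libraries by its point values alone. Its levels were 39.7 CPM (28.8 to 53.5) and 33.8 CPM (21.9 to 49.9), and the lower ends of these intervals reach the marker range.

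Rgs3 stood out among the members in endothelial-like barcodes. It had 36.0 CPM (25.6 to 49.3) in the anesthesia and 73.0 CPM (54.9 to 95.3) in the awake library, 116% and 163% of its microglial level. It lay above all 10 markers, as Rgs19 did by its point values, and unlike Rgs19 it did so also at the lower end of its interval. It alone of the members exceeded its microglial level, in the anesthesia library within counting error. Among the other family members, Rgs5 had 113 and 187 CPM there, Rgs12 149 and 165 CPM and Rgs16 28.7 and 97.4 CPM, against at most 5.30 CPM of any of them in microglia-like cells. Rgs16 counted 31 UMIs in anesthesia and 72 UMIs in awake endothelial-like barcodes, its log2 ratio being -1.77 (-2.42 to -1.14), while Rgs12 was at -0.15 (-0.50 to 0.20). In microglia-like cells, where Rgs16 was too rare to count as measured, it had 89 UMIs in the anesthesia and 23 UMIs in the awake library, a log2 ratio of 1.75 (1.07 to 2.47), and the difference between the classes was not tested. The microglial share of RNA in these barcodes was higher in the anesthesia library, and its part in these ratios was not tested.

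**Figure D5:**
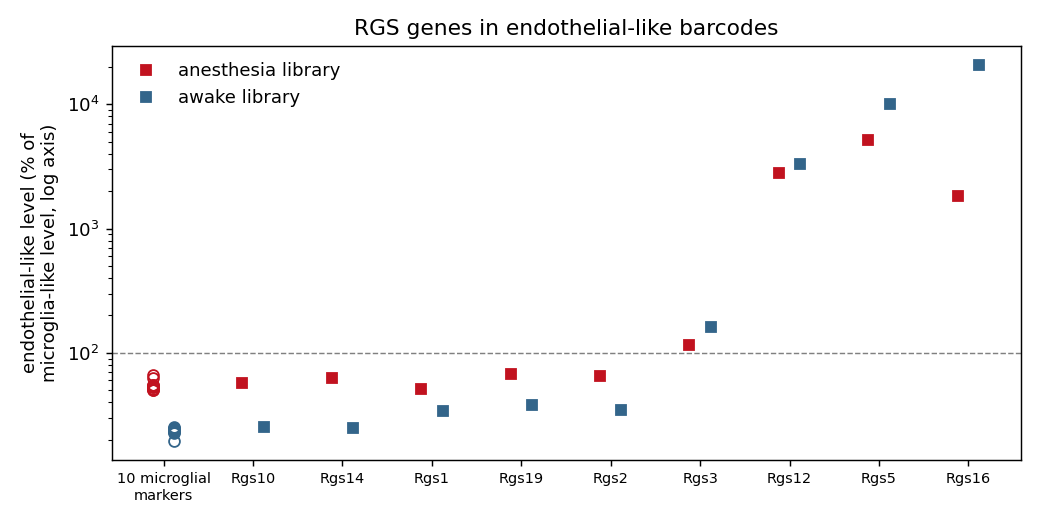
Level in endothelial-like barcodes as a percentage of the level in microglia-like cells of the same library (log axis), for 10 microglial markers (open circles) and for RGS genes (squares). Rgs10 sits close to the markers in both libraries (57.2% and 25.5%), Rgs3 lies above 100%, and Rgs12, Rgs5 and Rgs16 lie far above it.

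Rgs18 was mostly seen outside microglia, in neutrophil-like and border-associated macrophage-like cells. It had 27 UMIs in 21 neutrophil-like cells of the awake library (87.6 CPM, 57.8 to 128), where 15 of the 21 cells held it unthinned, and 5 UMIs in the 3 neutrophil-like cells of the anesthesia library. In border-associated macrophage-like cells it had 6 UMIs in the anesthesia library (5.83 CPM, 2.14 to 12.7) and 17 UMIs in the awake library (22.6 CPM, 13.2 to 36.2), a log2 ratio of -1.96 (-3.59 to -0.55). Rgs14 also had 10 UMIs in the awake neutrophil-like cells, 32.5 CPM (15.6 to 59.7). Rgs1 was higher in the border-associated macrophage-like cells of the anesthesia library, at 335 CPM (301 to 373) in 101 cells, against 77.2 CPM (58.6 to 99.8) in 156 awake cells, a log2 ratio of 2.12 (1.71 to 2.55). The microglial markers in that cluster stood at a median of 87.5% of the microglial level in the anesthesia and 65.2% in the awake library, and how much of the RNA in that cluster came from microglia was not tested. In 83 anesthesia and 42 awake choroid plexus or ependymal-like barcodes, Rgs1 was at 94.6 CPM (71.5 to 123) and 92.6 CPM (62.9 to 131), and Rgs12 at 13.5 and 29.9 CPM. Rgs10 was at 103% and 96.6% of its microglial level in the border-associated macrophage-like cells and at 53.0% and 39.0% in the choroid plexus or ependymal-like barcodes, where the markers reached at most 52.5% and 43.1%.

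Among the partners of RGS proteins, 1 of 9 measured G alpha and 1 of 10 measured beta and gamma genes lay beyond 1.5-fold, and receptor genes beyond it went both ways. Counts in these lists stand beside 13.2% higher and 12.1% lower over all measured genes, and no difference from that share was tested. Of 13 G alpha genes 9 were measured, and 1 of them was beyond 1.5-fold, on the higher side, while the list had a median of -0.10. Gnai2, the most abundant inhibitory alpha subunit gene here, had 987 CPM in the anesthesia and 1069 CPM in the awake library (-0.12, interval -0.13 to -0.10), and Gnaq had 133 and 143 CPM (-0.10). The exception was Gnal, which encodes the olfactory-type stimulatory subunit, with 355 UMIs (6.25 CPM) in the anesthesia and 42 UMIs (0.854 CPM) in the awake library, a log2 ratio of 2.87 (2.41 to 3.37). Of 10 measured beta and gamma genes, 1 was higher (Gng10, 0.68, whose exons overlap those of Gm20503) and 0 lower, with a median of -0.35. None of 6 measured receptor kinase and arrestin genes was beyond 1.5-fold.

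Among 24 measured receptor genes the list median was -0.11, and 5 lay beyond 1.5-fold on the higher and 8 on the lower side, where 13.2% and 12.1% of all measured genes did. The highest were Ptger4, a prostaglandin receptor (1.11), Gpr183, an oxysterol receptor (1.10), with 196 CPM in the anesthesia and 91.5 CPM in the awake library, and Gpr65, a proton-sensing receptor (0.95). On the lower side was Ccr1, a chemokine receptor gene (-1.14), with 6.59 CPM in the anesthesia and 14.5 CPM in the awake library. P2ry12 (-0.09) and Cx3cr1 (0.05), receptors for ADP and fractalkine, differed little. Of 19 measured effector genes, 2 were higher and 2 lower, close to the 13.2% and 12.1% over all measured genes, with a median of 0.0036. Pik3cg, the catalytic subunit of a phosphoinositide kinase driven by beta-gamma subunits, was higher (0.75), and Pik3r5, a regulatory subunit of the same kinase, was lower (-0.94). Of 9 other regulators, Akap10 (1.13) and Snx13 (0.64), which carry RGS-like domains, were higher and Gpsm3, which binds inhibitory alpha subunits, was lower (-0.70), and its exons overlap those of Pbx2.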

How the data were processed

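The authors deposited 2 sparse matrices of raw UMI counts per gene and barcode. The submitters' processing notes name bcl2fastq, Cell Ranger 3.1.0 and GRCm38, whereas Cell Ranger 4.0.0 stands in the headers of the matrices. How cells were called is not given here. The filter kept 8944 anesthesia and 8223 awake cells, those with 500 or more genes, 1000 or more UMIs and no more than 10% mitochondrial UMIs. They were clustered with scanpy 1.11.5 and leidenalg 0.10.2 (2000 variable genes, 30 components, 15 neighbours, resolution 0.6), leaving out every Rgs gene, the dissociation response list and mitochondrial, ribosomal protein and hemoglobin genes. Clusters were named from 10 markers for each of 17 classes. A class other than microglia needed 3 markers among the 10 leading genes and 3 seen in 25% of its cells, and microglia needed 7 markers in 25% of cells. Clusters 4 and 8 stayed unnamed. Scrublet called 1 anesthesia and 0 awake cells doublets, so it did not work, and no cell was removed by it.

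Counts were summed per library over microglia-like cells and scaled to 1000000. Log2 ratios have exact conditional binomial intervals, CPM have exact Poisson intervals, and Clopper-Pearson intervals were used for shares. The interval script was tested on simulated counts. The members and gene lists were chosen with earlier results of these data known. Named genes were the members, other Rgs genes that were measured or reached 20 CPM in another class, up to 3 genes per direction beyond 1.5-fold of each list, 4 fixed genes and the 3 genes of most like pattern for Rgs1, Rgs2 and Rgs10. Some genes that this rule names are not reported here.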

Additional observations from a re-analysis of the deposited data

Results flagged for a closer look

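Rgs10 differed in opposite directions in microglia-like cells and endothelial-like barcodes. Its log2 ratio was -0.54 in microglia-like cells and 0.62 (0.42 to 0.83) in endothelial-like barcodes, with 654 UMIs (604 CPM) in the anesthesia and 290 UMIs (392 CPM) in the awake library. The difference between these classes was not tested. The summed level of the 10 microglial markers in the same barcodes was 14029 CPM in the anesthesia and 6784 CPM in the awake library.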

How the results depend on the processing

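Log2 ratios of Rgs1, Rgs3, Rgs10, Rgs14 and Rgs19 kept their sign under all 11 alternatives. Rgs1 ranged from 0.44 to 0.85, Rgs10 from -0.56 to -0.33, Rgs19 from -0.88 to -0.41, Rgs3 from -0.57 to -0.35 and Rgs14 from -1.27 to -0.17, the lowest of which rests on single UMIs within clusters. Rgs2 turned to -0.0027 without cells over 10000 UMIs, to -0.0088 as a mean of per-cell shares and to -0.0217 once the trend of GC and length was taken out. The number of members at least 1.5-fold higher was 0 instead of 1 with that trend removed, by the mean of within-cluster ratios (clusters 1, 3 and 9) and at a 2-fold limit. The number at least 1.5-fold lower, 1 at first, was 0 over all deposited barcodes, over all filtered cells, at 5% mitochondrial UMIs, without cells over 10000 UMIs, under median-of-ratios scaling, under a total without mitochondrial, ribosomal and hemoglobin genes, with the trend removed and at a 2-fold limit, 2 by within-cluster ratios and 3 at the one lower limit tried. The cause of these moves was not tested. Thinning to 1000 UMIs gave Rgs1 shares of 26.6% in anesthesia and 16.1% in awake cells. At that depth the Rgs3 shares were 3.13% (2.77 to 3.53) and 3.95% (3.52 to 4.42), with intervals that overlapped. Those of Rgs10 and Rgs19 stayed apart. The 4 largest microglia-like clusters alone, an alternative chosen after seeing the data, gave Rgs1 0.84 and Rgs10 -0.56. No paired analysis was possible because each group has 1 library. Depth limits Rgs14 and Rgs18.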

Other observations

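The unnamed clusters carried RGS RNA as well. In cluster 4, led by oligodendrocyte genes, Rgs1 was at 338 CPM (293 to 388) in 296 anesthesia barcodes and 149 CPM (118 to 185) in 230 awake barcodes, and Rgs10 was at 750.3 CPM (682 to 823) and 1167 CPM (1078 to 1262). In cluster 8, led by mural genes with the platelet gene Ppbp, Rgs18 had 7 UMIs in 61 anesthesia barcodes (15.8 CPM, 6.36 to 32.6) and 9 UMIs in 140 awake barcodes (9.15 CPM, 4.18 to 17.4), where microglia-like cells had 0.176 and 0.0610 CPM.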
